A study of Mus musculus with 36 samples.

Results

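The genes described here are the heat shock proteins and J-domain chaperones of the mouse. They were taken by symbol from the deposited gene table, as every name that begins with Hspa, Hspb, Hspd, Hspe, Hsph or Hsp90, or with Dnaja, Dnajb or Dnajc and a number. Names marked as pseudogenes by -ps were left out, which removed 14 rows. This gave 74 of the 54232 genes in the table, of which 62 had enough reads to be tested. By family they were 14 HSP70 genes, 3 HSP90 genes, the 2 chaperonin genes, 7 small heat shock proteins, 4 DNAJA, 13 DNAJB and 28 DNAJC genes, and 3 genes that carry an Hsp name for other reasons.

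Heat shock proteins hold unfolded protein chains and help them to fold. HSP70 proteins bind and release short stretches of a client protein in a cycle driven by ATP, J-domain proteins bring the client and start the cycle, and HSP110 proteins and other exchange factors reset it. HSP90 proteins receive partly folded clients, small heat shock proteins hold unfolding protein without using ATP, and the chaperonin encloses the client in a barrel. The cytosol, the endoplasmic reticulum (ER) and the mitochondrion each have their own set, and hepatocytes, which secrete most plasma proteins, depend on the ER set. The cytosolic set is known to be switched on by the factor HSF1 when proteins unfold, and the ER set by the unfolded protein response.

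RNA was measured in 36 libraries from 12 female C57BL6 mice. In 6 of them Nampt, the gene for the main enzyme of NAD+ salvage, had been deleted in hepatocytes by an albumin-driven Cre (HNKO), and 6 were WT littermates. All were 10 to 12 weeks old when they were put on an L-amino acid defined purified diet, and they stayed on it for 3 to 5 weeks. Each mouse gave a piece of liver cut off once the blood had been flushed out (L), washed hepatocytes before plating (CS, cell suspension) and hepatocytes after 24 h of culture (PH, primary hepatocytes). The liver piece came from the median lobe before collagenase was given and the cells from the remaining lobes, so that comparisons with liver also compare lobes. The deletion was directed to hepatocytes, and Nampt in the other cells of a sample was not measured separately. In PH against L dissociation, plating and time cannot be told apart.

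The WT liver of mouse 558 stood apart from all other libraries and was not used, which left 5 WT livers and 6 libraries in each other group, with 8698735 to 20350519 counts each. Levels are given as CPM, the counts of a gene relative to the TMM-scaled size of its library. Nampt was 81.5 ± 25.1 CPM (SD, n = 5) in WT and 40.9 ± 7.88 CPM (SD, n = 6) in HNKO liver, and it was lower in HNKO in all 3 sample types (adjusted p = 0.0142 in L, 0.00585 in CS and 0.000441 in PH). All 12 hepatocyte markers were detected in every group, and their summed level was 169200 to 206700 CPM in WT liver and 41020 to 63440 CPM in WT PH. Among the WT PH libraries that of mouse 544 had a mitochondrially encoded share of 1.93% of counts, against 3.98% to 5.53% in the other 5. The test was edgeR's quasi-likelihood F test, p was adjusted by Benjamini-Hochberg over 14932 genes, and a gene was called at an adjusted p under 0.05.

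The stretches of DNA just upstream of these genes can hold elements through which heat and ER stress are known to act, and 6 of them are shown here because genes with the same element took different courses in culture. The set of RefSeq promoters used here (GRCm38.p6) held 60 of the 74 genes, and the 250 bases before the RefSeq start were searched on both strands. The other members had no entry in this set and were not searched, among them Hspa8, Hsp90aa1, Hsp90ab1 and Dnajc12. The core of a heat shock element with 3 units (GAA, TTC and GAA, or the reverse complement, with 2 bases between units) was found in 3 genes, Dnajb6, Hspd1 and Hspe1, and in 0.466% of all 32851 mouse promoters. Its form with 2 units, GAANNTTC, which every match of the longer form also holds, was found in 11 genes and in 6.69% of promoters. The ER stress element (CCAAT and CCACG with 9 bases between them) was found in Hspa5, Hsp90b1 and Dnajc3 and in 0.113% of promoters, and its second form (ATTGG and CCACG with 1 base between them) was found in 0 of the 60 and in 0.0304% of promoters. A match is a description of the letters and not evidence of a bound factor. Each window below is written 5′ to 3′ on the strand of its gene, with the matches on either strand in capitals and overlapping matches run together. Hspb1 (chr5:135887669-135887918, plus strand) and Hspa1b (chr17:34959239-34959488, minus strand) carry the short heat shock element, Hspe1 (chr1:55087898-55088147, plus strand) carries the long one in a window that overlaps that of the divergent gene Hspd1, and Hspa5 (chr2:34771840-34772089, plus strand), Hsp90b1 (chr10:86705445-86705694, minus strand) and Dnajc3 (chr14:118937682-118937931, plus strand) carry the ER stress element.
Hspb1: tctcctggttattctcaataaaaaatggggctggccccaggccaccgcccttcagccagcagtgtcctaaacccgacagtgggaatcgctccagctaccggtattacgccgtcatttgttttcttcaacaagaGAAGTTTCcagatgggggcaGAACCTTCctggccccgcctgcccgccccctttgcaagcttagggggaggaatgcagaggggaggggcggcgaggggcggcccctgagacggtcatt
Hspa1b: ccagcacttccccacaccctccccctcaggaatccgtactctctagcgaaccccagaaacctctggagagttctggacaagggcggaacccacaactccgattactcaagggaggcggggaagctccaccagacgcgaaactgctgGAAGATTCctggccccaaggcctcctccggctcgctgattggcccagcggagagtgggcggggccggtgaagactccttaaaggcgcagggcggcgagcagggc
Hspe1: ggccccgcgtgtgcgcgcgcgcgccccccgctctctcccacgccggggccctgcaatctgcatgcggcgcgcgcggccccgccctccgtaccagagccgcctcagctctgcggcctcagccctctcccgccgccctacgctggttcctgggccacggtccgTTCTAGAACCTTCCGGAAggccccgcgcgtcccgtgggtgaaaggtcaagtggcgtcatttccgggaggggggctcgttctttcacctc
Hspa5: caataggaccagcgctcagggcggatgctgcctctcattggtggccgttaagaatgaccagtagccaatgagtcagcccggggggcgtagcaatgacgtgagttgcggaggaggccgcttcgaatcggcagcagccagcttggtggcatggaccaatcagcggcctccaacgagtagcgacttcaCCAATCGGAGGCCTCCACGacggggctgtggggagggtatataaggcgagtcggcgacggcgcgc
Hsp90b1: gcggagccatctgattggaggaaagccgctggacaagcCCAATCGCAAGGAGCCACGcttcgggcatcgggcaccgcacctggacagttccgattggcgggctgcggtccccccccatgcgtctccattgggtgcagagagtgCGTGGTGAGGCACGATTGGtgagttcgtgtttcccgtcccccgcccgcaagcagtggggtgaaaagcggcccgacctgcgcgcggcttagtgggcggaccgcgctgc
Dnajc3: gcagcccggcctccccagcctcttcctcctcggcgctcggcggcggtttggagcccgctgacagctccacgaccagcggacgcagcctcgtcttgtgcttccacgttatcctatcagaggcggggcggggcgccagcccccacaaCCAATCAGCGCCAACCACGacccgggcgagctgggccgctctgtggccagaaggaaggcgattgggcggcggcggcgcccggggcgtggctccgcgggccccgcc

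In WT liver the chaperone transcripts were dominated by constitutive members. Per kilobase of exon, the level was highest for Hsp90ab1 (274 CPM per kilobase), the constitutive cytosolic HSP90, and next for Hsp90b1 (241), its counterpart in the ER. Hspa5, the ER HSP70 also called BiP, followed at 158, then the mitochondrial chaperonin Hspd1 at 151, the mitochondrial HSP70 Hspa9 at 142 and Hspa8, the constitutive cytosolic HSP70, at 134 CPM per kilobase. The order differed in WT PH, where Hspa8 was second at 278 and Hsp90b1 seventh at 137 CPM per kilobase. These are levels, set by the union of exons of a gene, and neighbours in the order were not tested against each other. The summed level of the 74 genes was 6327 ± 344 CPM (SD, n = 5) in WT L, 7341 ± 669.8 CPM (SD, n = 6) in WT CS and 8985 ± 1098 CPM (SD, n = 6) in WT PH.

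After 24 h of culture most chaperone transcripts assigned to the cytosol were higher than in liver. Those of the ER and the mitochondrion were split or lower. In WT, 48 of the 62 tested genes differed between PH and L, 32 of them higher and 16 lower in PH, where 75.7% of all tested genes were called, so that the share of chaperones called (77.4%) was near the background. The median log2 fold change was 0.40 for the chaperones and 0.01 for all tested genes. Of all tested genes 37.5% were higher and 38.2% lower in PH. Of the 22 tested cytosolic members 17 rose and 1 fell (median log2 fold change 0.82). Of the 10 ER members 2 rose and 3 fell (median -0.18), and of the 8 mitochondrial members 1 rose and 5 fell (median -0.34). The compartment of each protein was assigned from textbook knowledge. Tested members placed elsewhere or not assigned are in none of these 3 counts. Among them were Dnajc2, Dnajc7, Dnajc16 and Dnajc18, which rose, and Dnajc12 and Dnajc25, which fell. The counts of a compartment therefore cover only the members assigned to it. The libraries of PH and L did not overlap for 38 of the 62 genes, 25 higher and 13 lower in PH, against 60.8% of all tested genes. With library totals in place of TMM factors the median of all genes moved to 0.56 and the split of chaperones to 44 higher and 9 lower. On that scale 20 cytosolic members rose and 0 fell, 6 ER members rose and 1 fell, and 4 mitochondrial members rose and 2 fell, so that the directions given here for small changes are relative to the other genes. The medians kept their order on it, at 1.37 for the cytosol, 0.38 for the ER and 0.21 for the mitochondrion. Fewer cells of a type and less RNA per cell cannot be told apart in these data.

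**Figure D1:**
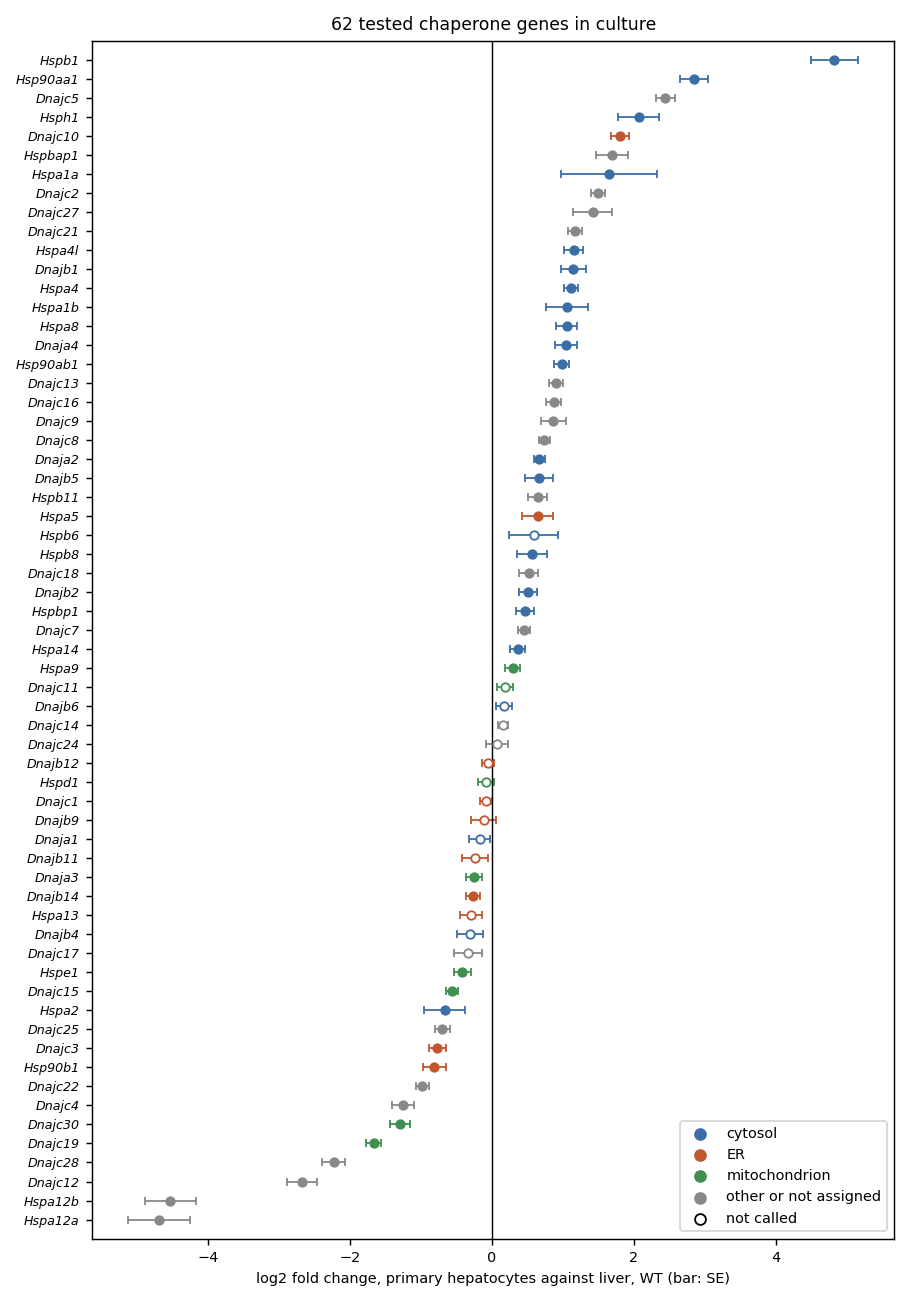
Log2 fold change of PH against L in WT (horizontal axis) for the 62 tested chaperone genes, ordered by size, with bars for the SE, filled points for genes called and colours for the compartment. Cytosolic genes lie mostly to the right, from 4.83 for Hspb1, and the mitochondrial genes Dnajc19 (-1.67) and Dnajc30 (-1.30) to the left.

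The largest rise was that of Hspb1, the small heat shock protein HSP25 of the mouse, which holds unfolding protein and binds actin. It was 4.39, 5.77, 1.95, 6.17 and 2.99 CPM in the 5 WT livers. In WT PH it had a lowest value of 71.3, a median of 112 and a highest value of 223 CPM. Every cultured library lay far above every liver, with a difference of 28.3-fold (log2 fold change 4.83 ± 0.33 (SE), adjusted p = 1.24e-14). WT CS lay at 3.22 to 10.51 CPM, overlapping with liver (log2 fold change 0.47 ± 0.32, SE, adjusted p = 0.52). Hspb1 shares 49.9% of its 51-base stretches with other genes, mainly a pseudogene, so that its level is uncertain. Hspb8, which works with BAG3 in the removal of damaged protein, was 182 ± 22.7 CPM (SD, n = 5) in L and 268 ± 82.7 CPM (SD, n = 6) in PH (log2 fold change 0.56 ± 0.21 (SE), adjusted p = 0.0173), with overlapping groups, a call that was lost without mouse 554 (adjusted p = 0.0891) and without mouse 556 (adjusted p = 0.0501). Hspb6 was 11.3 ± 1.80 CPM (SD, n = 5) in L and 17.0 ± 9.36 CPM (SD, n = 6) in PH and was not called (adjusted p = 0.12).

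Both cytosolic HSP90 genes rose. Hsp90aa1, the stress-inducible form, was 49.95, 52.8, 55.3, 55.4 and 51.2 CPM in WT L. In WT PH it had a lowest value of 300.3, a median of 386 and a highest value of 468 CPM, without overlap and 7.22-fold higher (log2 fold change 2.85 ± 0.20 (SE), adjusted p = 1.1e-14). Hsp90aa1 shares 47.3% of its 51-base stretches with other genes. Hsp90ab1 was 777, 836, 796, 821 and 878 CPM in WT L. In WT PH it had a lowest value of 1307, a median of 1586 and a highest value of 2013 CPM. Its groups were also apart, with a smaller rise of 1.97-fold (log2 fold change 0.98 ± 0.11 (SE), adjusted p = 1.05e-09).

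Of the 13 tested HSP70 genes 9 rose and 3 fell in WT PH against L, where 37.5% of all tested genes were higher and 38.2% lower. Hspa8 was 466.1, 653, 588, 593 and 592 CPM in L. It had a lowest value of 930.4, a median of 1191 and a highest value of 1558 CPM in PH. The groups did not overlap (log2 fold change 1.05 ± 0.14 (SE), adjusted p = 7.66e-08), and Hspa8 shares 39.1% of its 51-base stretches with other genes. Hsph1, the HSP110 protein that exchanges the nucleotide of HSP70 and is itself known as heat-inducible, rose 4.19-fold. It was 20.6, 33.0, 29.2, 21.5 and 33.4 CPM in L. It had a lowest value of 95.4, a median of 109 and a highest value of 159.9 CPM in PH, every library above every liver (log2 fold change 2.07 ± 0.29 (SE), adjusted p = 9.62e-08). The other HSP110 members, Hspa4 and Hspa4l, rose 2.16-fold and 2.21-fold, also without overlap (adjusted p = 2.03e-11 and 2.84e-09).

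The classical inducible HSP70 genes, Hspa1a and Hspa1b, were at low levels in both WT L and WT PH. Hspa1b was 1.10, 1.38, 0.744, 0.827 and 2.31 CPM in WT L. It had a lowest value of 2.15, a median of 2.53 and a highest value of 3.43 CPM in WT PH. One liver, of mouse 564, lay inside the range of PH, and the rise was 2.08-fold (log2 fold change 1.06 ± 0.29 (SE), adjusted p = 0.00169). Hspa1a was 0.179 ± 0.151 CPM (SD, n = 5) in L and 0.607 ± 0.256 CPM (SD, n = 6) in PH (log2 fold change 1.65 ± 0.68 (SE), adjusted p = 0.0291), with 290 counts in all 35 libraries, and the call was lost without mouse 554 (adjusted p = 0.0786) and without mouse 556 (adjusted p = 0.138). Hspa1a shares 66.1% and Hspa1b 62% of its 51-base stretches with other genes, mainly with each other. Counts may therefore be divided between them, and both levels are uncertain. Among the members whose promoter was searched, the short heat shock element shown above for Hspb1 and Hspa1b was shared by 10 tested genes. Of these 5 rose, 1 fell and 4 were not called in WT PH against L. The 3 genes with the long form, which are among the 10, gave 0 rises, 1 fall (Hspe1) and 2 without a call. In this comparison 75.7% of all tested genes were called, 37.5% higher and 38.2% lower. With library totals Hspd1 (log2 fold change 0.46, adjusted p = 9.85e-05) and Dnaja1 (0.37, adjusted p = 0.0207) were called higher. Hspe1 was not called on that scale (0.12, adjusted p = 0.302), so that these tallies depended on the scaling. On it 7959 of all 14932 tested genes were higher and 3956 lower.

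**Figure D2:**
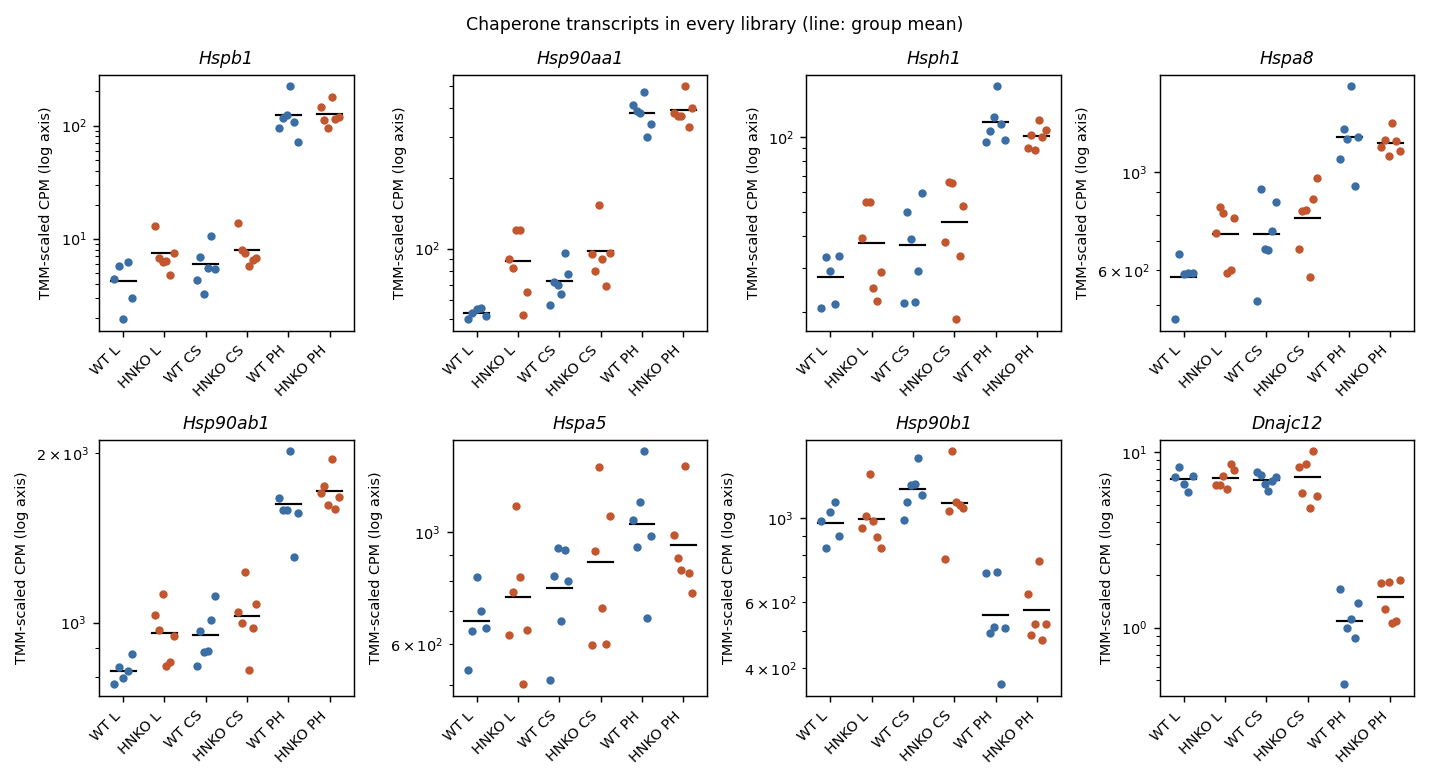
TMM-scaled CPM (log axis) of 8 chaperone genes in each library of the 6 groups, with a line for the group mean, WT in blue and HNKO in orange. Hspb1, Hsp90aa1 and Hsph1 are higher in both PH groups than in every L library, Hsp90b1 and Dnajc12 are lower, and the groups of Hspa5 overlap.

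Among the J-domain proteins of the cytosol, Dnajb1, the best known partner of HSP70 in the heat shock response, was 17.9, 21.8, 17.9, 15.7 and 18.5 CPM in WT L. It had a lowest value of 30.9, a median of 41.2 and a highest value of 48.7 CPM in WT PH. It rose 2.21-fold without overlap (log2 fold change 1.14 ± 0.18 (SE), adjusted p = 6.82e-07). Dnaja2, a cytosolic partner of HSP70, rose 1.58-fold from 114 ± 10.6 CPM (SD, n = 5) without overlap. Its relative Dnaja4 rose 2.06-fold from 5.17 ± 1.32 CPM (SD, n = 5), although 42.7% of its 51-base stretches are shared with other genes, mainly the overlapping gene Wdr61. Dnaja1 was 100.3 ± 15.5 CPM (SD, n = 5) in L and 88.8 ± 13.4 CPM (SD, n = 6) in PH and was not called (adjusted p = 0.285), with a log2 fold change of -0.17 that became 0.37 with library totals. Dnajb2 and Dnajb5 rose (0.51 ± 0.12 and 0.66 ± 0.20 on the log2 scale, SE), the first a call lost with all 36 libraries (adjusted p = 0.277), and Dnajb4 and Dnajb6 were not called (adjusted p = 0.115 and 0.158). The log2 fold change of Dnajb4 was -0.31, and 0.23 with library totals.

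Several J-domain proteins outside the general folding machinery rose as well. Dnajc5, the cysteine string protein of secretory vesicles, was 71.0, 63.1, 70.5, 56.6 and 74.5 CPM in WT L. It had a lowest value of 257, a median of 379 and a highest value of 433 CPM in WT PH. The difference was 5.44-fold without overlap (log2 fold change 2.44 ± 0.13 (SE), adjusted p = 3.24e-17), and no 51-base stretch of Dnajc5 is shared with another gene. Dnajc2, which with Hspa14 assists new chains at the ribosome, rose 2.81-fold from 16.1 ± 1.67 CPM (SD, n = 5) (log2 fold change 1.49 ± 0.10 (SE), adjusted p = 1.04e-14), and its partner Hspa14 rose 1.28-fold. Dnajc21, a factor of large ribosomal subunit maturation, rose 2.25-fold from 21.8 ± 2.38 CPM (SD, n = 5) (log2 fold change 1.17 ± 0.10 (SE), adjusted p = 1.18e-12). Dnajc27 and Hspbap1 rose 2.67-fold and 3.23-fold from low levels of 1.47 and 3.46 CPM.

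The members assigned to the ER were split between Hspa5 and Dnajc10, which rose, and Hsp90b1, Dnajc3 and Dnajb14, which fell. Hspa5 was 535, 637, 814, 699.9 and 645 CPM in WT L. It had a lowest value of 676, a median of 1019 and a highest value of 1441 CPM in WT PH. The groups overlapped through the culture of mouse 558, and the rise was 1.56-fold (log2 fold change 0.64 ± 0.21 (SE), adjusted p = 0.00792). Hsp90b1, also called GRP94, moved the other way. It was 985, 834, 1038, 1103 and 899.7 CPM in WT L. It had a lowest value of 362, a median of 512 and a highest value of 718 CPM in WT PH. All cultures lay below all livers, at 0.569 of the liver level (log2 fold change -0.81 ± 0.16 (SE), adjusted p = 3.45e-05), although with library totals the value was -0.26 and not called (adjusted p = 0.0992). Dnajc3, the ER J-domain protein P58IPK that assists BiP, also fell without overlap, from 246 ± 25.5 CPM (SD, n = 5) to 144 ± 17.5 CPM (SD, n = 6) (log2 fold change -0.77 ± 0.12 (SE), adjusted p = 1.27e-06). Hence the 3 genes that share the ER stress element in the windows shown above gave 1 rise and 2 falls, where 75.7% of all tested genes were called. Some 9.63% of the 51-base stretches of Hsp90b1 are shared with overlapping genes. Dnajc10, the ER reductase ERdj5, rose 3.48-fold from 34.5 ± 4.57 CPM (SD, n = 5) to 120.4 ± 16.4 CPM (SD, n = 6) without overlap (log2 fold change 1.80 ± 0.13 (SE), adjusted p = 2.68e-14). Dnajb9 (ERdj4) and Dnajb11 (ERdj3), both partners of BiP, were not called (log2 fold changes -0.12 ± 0.18 and -0.24 ± 0.19, SE), and they stood at 0.42 (adjusted p = 0.0352) and 0.33 (adjusted p = 0.0677) with library totals. Hspa13, Dnajc1 and Dnajb12 were not called either, with log2 fold changes of -0.30, -0.09 and -0.06 that were all above 0 with library totals. Dnajb14, a membrane J-domain protein, fell to 0.829 of its liver level (adjusted p = 0.0143), but with library totals it was higher (0.28), and leaving out mouse 548 or mouse 554 ended the call (adjusted p = 0.0766 and 0.06).

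Of the 8 mitochondrial genes 5 fell, 4 of them J-domain proteins, where 38.2% of all tested genes were lower. Dnajc19, a relative of the yeast import motor subunit Pam18, was 35.5, 30.7, 41.6, 38.1 and 31.4 CPM in WT L. It had a lowest value of 9.14, a median of 10.6 and a highest value of 13.9 CPM in WT PH. The groups were apart, at 0.314 of the liver level (log2 fold change -1.67 ± 0.11 (SE), adjusted p = 1.78e-15). Its paralog Dnajc15 fell (log2 fold change -0.57 ± 0.08 (SE), adjusted p = 2.53e-07), but stood at -0.02 with library totals. Dnajc30 fell from 21.9 ± 3.89 CPM (SD, n = 5) to 8.88 ± 1.27 CPM (SD, n = 6) (log2 fold change -1.30 ± 0.14 (SE), adjusted p = 3.18e-10), although it shares 24.2% of its 51-base stretches with other genes, mainly Bud23. Hspe1, the lid of the chaperonin, fell to 0.749 of its liver level (log2 fold change -0.42 ± 0.12 (SE), adjusted p = 0.0028), but with library totals its value was 0.12. Its divergent neighbour Hspd1, the barrel, was 398 ± 29.5 CPM (SD, n = 5) in L and 375 ± 76.6 CPM (SD, n = 6) in PH and was not called (log2 fold change -0.08, adjusted p = 0.519), but with library totals it was called higher (0.46, adjusted p = 9.85e-05). Both share stretches with other genes, pseudogenes among them, 22.4% for Hspe1 and 41.6% for Hspd1. Dnaja3, the mitochondrial DNAJA gene, was 0.840 of its liver level (adjusted p = 0.0407), a call that turned to a rise of 0.29 with library totals and was lost without a filter (adjusted p = 0.0928), with all 36 libraries (adjusted p = 0.582) and without mouse 544, 548, 554, 558, 562 or 564 (adjusted p 0.0509 to 0.151). Dnajc11 was not called (log2 fold change 0.18 ± 0.11, SE). Hspa9, the mitochondrial HSP70, was 1.23-fold higher in PH with overlapping groups (log2 fold change 0.29 ± 0.11 (SE), adjusted p = 0.0132), a call that was lost without mouse 564 (adjusted p = 0.0771) and with only the groups compared (adjusted p = 0.0859).

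The largest falls were those of Hspa12a and Hspa12b, distant HSP70 relatives of which Hspa12b is known from endothelial cells. Hspa12b was 2.20, 1.69, 1.21, 1.28 and 1.45 CPM in WT L. It had a lowest value of 0, a median of 0.0607 and a highest value of 0.0939 CPM in WT PH, at or near 0 (log2 fold change -4.54 ± 0.36 (SE), adjusted p = 4.97e-13). Hspa12a was 1.77 to 3.01 CPM in L and 0 to 0.139 CPM in PH (log2 fold change -4.70 ± 0.43 (SE), adjusted p = 1.42e-11). The summed level of 9 endothelial markers, none of them at 0 in a group, was 318 to 344 CPM in WT L and 109 to 189 CPM in WT PH, and the part of other cell types in these falls was not tested. Dnajc12, which binds phenylalanine hydroxylase and its relatives, was 7.27, 8.22, 6.60, 5.94 and 7.34 CPM in WT L. It had a lowest value of 0.475, a median of 1.06 and a highest value of 1.67 CPM in WT PH. It fell to 0.156 of the liver level without overlap (log2 fold change -2.68 ± 0.22 (SE), adjusted p = 5.17e-13). Dnajc28 fell from 14.8 ± 2.78 CPM (SD, n = 5) to 3.16 ± 0.482 CPM (SD, n = 6), Dnajc4 from 11.2 ± 0.738 CPM (SD, n = 5) to 4.69 ± 0.793 CPM (SD, n = 6), and Dnajc22 from 133 ± 9.46 CPM (SD, n = 5) to 67.5 ± 7.96 CPM (SD, n = 6), each without overlap (adjusted p = 6.57e-14, 4.25e-09 and 1.23e-11).

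The remaining tested members changed less than 2-fold in WT culture. Dnajc7, which binds both HSP70 and HSP90, rose 1.36-fold from 71.5 ± 6.79 CPM (SD, n = 5). Dnajc8, a protein of the spliceosome, rose 1.67-fold from 28.8 ± 2.49 CPM (SD, n = 5), Dnajc9, a histone chaperone, 1.82-fold from 5.77 ± 0.656 CPM (SD, n = 5), and Dnajc13, which acts on endosomes, 1.87-fold from 42.5 ± 4.32 CPM (SD, n = 5). Dnajc16 and Dnajc18 rose 1.83-fold and 1.43-fold, and all 6 of these genes were higher in every WT PH library than in every WT liver. Hspb11, a protein of intraflagellar transport, rose 1.56-fold and Hspbp1 1.38-fold, the latter a call lost with all 36 libraries (adjusted p = 0.144). The other 2 fell, Dnajc25 from 28.3 ± 1.05 CPM (SD, n = 5) to 17.4 ± 2.58 CPM (SD, n = 6) and Hspa2, an HSP70 known best from testis, from 3.23 ± 0.649 CPM (SD, n = 5) to 2.03 ± 0.547 CPM (SD, n = 6), neither called with library totals. No filter, all 36 libraries, or leaving out mouse 554, 556 or 564 also ended the call of Hspa2 (adjusted p 0.0712 to 0.176). Dnajc14, Dnajc17 and Dnajc24, a factor of diphthamide synthesis, were not called (log2 fold changes 0.15, -0.34 and 0.06), and Dnajc17 stood at 0.20 with library totals.

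Every member called in both genotypes changed in the same direction in HNKO culture as in WT. Of the 62 tested genes 50 were called between PH and L in HNKO, 29 higher and 21 lower, against 76.2% of all tested genes, and with library totals the split was 41 higher and 9 lower. By compartment 15 cytosolic members rose and 2 fell, 1 ER member rose and 6 fell, and 1 mitochondrial member rose and 6 fell, where 37.7% of all tested genes were higher and 38.5% lower. With library totals these were 18 and 0, 5 and 2, and 3 and 2. The groups were apart for 34 members, against 53.9% of all tested genes. Between the genotypes, whose libraries are separate, 27 genes rose in both, 16 fell in both and 0 were called in opposite directions. Hspb1 rose 16.9-fold in HNKO, from 7.42 ± 2.83 CPM (SD, n = 6) to 127 ± 29.5 CPM (SD, n = 6) (log2 fold change 4.08 ± 0.29 (SE), adjusted p = 3.07e-14). Hsp90aa1 rose 4.44-fold and Hsph1 2.69-fold, both without overlap (adjusted p = 9.96e-13 and 1.19e-05). Hspa5 was 744 ± 217 CPM (SD, n = 6) in HNKO L and 942 ± 213 CPM (SD, n = 6) in HNKO PH and was not called (adjusted p = 0.127). It was called higher with library totals (log2 fold change 0.80, adjusted p = 0.000281) and without mouse 546 (0.52, adjusted p = 0.0189). Dnajb9 fell from 60.0 ± 8.17 CPM (SD, n = 6) to 36.1 ± 4.10 CPM (SD, n = 6) (log2 fold change -0.73 ± 0.17 (SE), adjusted p = 0.000367), a call lost with library totals (adjusted p = 0.139). Hsp90b1 was 997 ± 169 CPM (SD, n = 6) in HNKO L and 569 ± 113 CPM (SD, n = 6) in HNKO PH (log2 fold change -0.81 ± 0.16 (SE), adjusted p = 2.18e-05), and Dnajc19 was 28.9 ± 3.09 CPM (SD, n = 6) and 10.8 ± 0.951 CPM (SD, n = 6) (log2 fold change -1.42 ± 0.10 (SE), adjusted p = 4.15e-14). Hspd1 was called only in HNKO (log2 fold change -0.28 ± 0.11 (SE), adjusted p = 0.0251), with a value of 0.18 with library totals, and leaving out mouse 540, 542, 546 or 562 ended the call (adjusted p 0.053 to 0.104). Hspa1b rose 1.70-fold (log2 fold change 0.76 ± 0.26 (SE), adjusted p = 0.00943), which was lost without mouse 562 (adjusted p = 0.0552).

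A gene called in only 1 genotype is not shown to differ between genotypes. The difference of the 2 culture changes was tested directly and 0 chaperones were called, against 1.58% of all tested genes. Of the chaperones 12 were at an unadjusted p under 0.05, and DESeq2 called 1, against 659 of all 13652 genes it tested. Counts at an unadjusted p, here and below, were not set against all tested genes, so that no excess is read from them. The smallest p values were those of Dnajc4 (difference 0.68 ± 0.21 on the log2 scale, SE, adjusted p = 0.0746), Dnajc15 (0.35 ± 0.12, adjusted p = 0.1) and Hspbap1 (-0.88 ± 0.30, adjusted p = 0.111). For Hsp90aa1 the difference was -0.70 ± 0.25 (SE, adjusted p = 0.122). Without mouse 544 there were 2 calls, and with the mouse as a block there was 1. Over all tested genes these 2 fits gave 1005 and 378 calls.

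**Figure D3:**
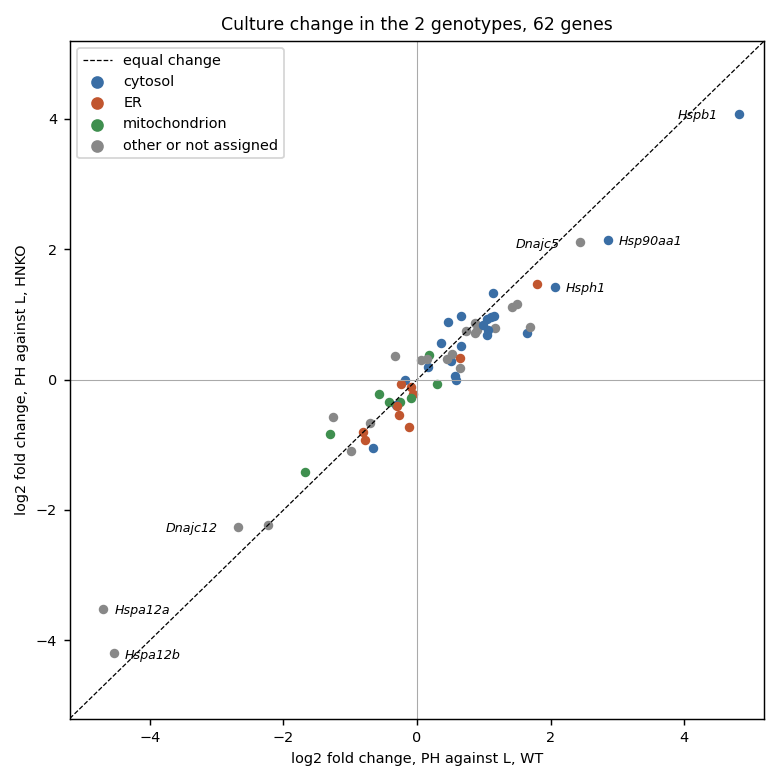
Log2 fold change of PH against L in WT (horizontal axis) and in HNKO (vertical axis) for the 62 tested genes, coloured by compartment, with a dashed line of equal change. Hspb1 (4.83 and 4.08) and Hsp90aa1 (2.85 and 2.15) lie below the line at the upper right, and Hspa12a and Hspa12b at the lower left.

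Few chaperones differed between the cell suspension and the liver. In WT CS against L 0 of 62 tested genes were called, where 3.5% of all tested genes were. Of the 62 genes 11 were at an unadjusted p under 0.05, and DESeq2 called 2, against 789 of all 18492 genes it tested. Dnajb4, Dnajc25 and Hsp90aa1 were higher in every WT CS library than in every WT liver, against 5.68% of all tested genes without overlap, and Hsp90aa1 went from 53.0 ± 2.43 CPM (SD, n = 5) to 72.8 ± 13.2 CPM (SD, n = 6) (log2 fold change 0.46 ± 0.18, SE, adjusted p = 0.191). In HNKO 1 gene was called, against 5.37% of all tested genes and 1.94% called higher, and 0 had groups apart, against 3.08%. This was Dnajb1, which had a lowest value of 13.8, a median of 17.1 and a highest value of 22.2 CPM in HNKO L. In HNKO CS it had a lowest value of 19.2, a median of 29.4 and a highest value of 43.0 CPM. The groups overlapped, and the rise was 1.73-fold (log2 fold change 0.79 ± 0.17 (SE), adjusted p = 0.00199). In WT the same step gave 0.51 ± 0.18 (SE, adjusted p = 0.12), and the difference between genotypes was 0.29 ± 0.24 (SE, adjusted p = 0.977). No chaperone was called for such a difference (0 of 62, against 0% of all tested genes), with 2 at an unadjusted p under 0.05. DESeq2 called 0 chaperones and 0 of all 31204 genes it tested.

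Plated cells differed from the suspension about as widely as from the liver. In WT 50 genes were called, 28 higher and 22 lower in PH, against 75.1% of all tested genes (38.3% higher and 36.8% lower), and in HNKO 50, 29 higher and 21 lower, against 75.7% (38.1% and 37.6%). The groups were apart for 36 members in WT (54.5% of all tested genes) and 36 in HNKO (53.1%). With library totals these splits were 43 and 11 in WT and 44 and 9 in HNKO. Against CS, Hspb1 was 20.5-fold, Dnajc5 5.07-fold, Hsp90aa1 5.25-fold and Hsph1 3.13-fold higher in WT PH, each without overlap. Hspa1b was 0.777 ± 0.202 CPM (SD, n = 6) in WT CS, and all WT PH libraries lay above that group (log2 fold change 1.75 ± 0.29 (SE), adjusted p = 2.81e-06). Hsp90b1 and Dnajc3 fell to 0.463 and 0.504 of their CS levels. Hspa5 was not called here (log2 fold change 0.42 ± 0.20 (SE), adjusted p = 0.0591), although it was called with the mouse as a block (adjusted p = 0.0401).

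In liver 1 chaperone differed between the genotypes. It was 1 of the 62 tested genes, against 1.51% of all tested genes and 1.03% called higher, and 0 of the 62 had groups apart, against 3.5%. The gene was Hsp90aa1, at 49.95, 52.8, 55.3, 55.4 and 51.2 CPM in WT. In HNKO it had a lowest value of 52.0, a median of 86.3 and a highest value of 120.4 CPM. Only the HNKO liver of mouse 562 lay inside the WT range, and the difference was 1.67-fold (log2 fold change 0.74 ± 0.18 (SE), adjusted p = 0.0342). The call was lost with all 36 libraries (adjusted p = 0.243), with only the L groups fitted (adjusted p = 0.0702), and without mouse 540, 544, 548, 552, 554, 556 or 564, each left out in turn (adjusted p up to 0.105). Hspa1b was 1.27 ± 0.630 CPM (SD, n = 5) in WT and 2.52 ± 0.564 CPM (SD, n = 6) in HNKO liver and missed the threshold (log2 fold change 0.99 ± 0.30 (SE), adjusted p = 0.0761), but it was called higher in HNKO with library totals, all 36 libraries and DESeq2 (adjusted p = 0.0208, 0.0417 and 0.0236). Hspb1 missed the threshold too (log2 fold change 0.80 ± 0.31 (SE), adjusted p = 0.173). In the same livers the summed level of 9 cholangiocyte markers was 51.1 to 70.1 CPM in WT and 87.6 to 1444 CPM in HNKO, with no marker at 0 in either group. The sum was 18.4 to 22.6 CPM in WT and 23.7 to 59.2 CPM in HNKO for 9 other leukocyte markers, 297 to 455 and 446.5 to 1167 CPM for 9 stellate cell markers, and 169200 to 206700 and 109400 to 185900 CPM for the hepatocyte markers. For 9 Kupffer cell and macrophage markers it was 439.4 to 571.9 CPM in WT and 409.3 to 604.5 CPM in HNKO. For 9 endothelial markers it was 317.9 to 344.1 and 314.1 to 400.4 CPM. In both of these lists the WT range lay inside the HNKO range. The HNKO liver of mouse 552, which had the highest Hsp90aa1 value at 120.4 CPM, also had the lowest mean Spearman correlation with its sample type among the libraries used (0.941), and without this mouse the log2 fold change of Hsp90aa1 was 0.64. The part of other cell types or of this library in these values was not tested.

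In cell suspension 0 chaperones were called between genotypes, against 0.0268% of all tested genes, and 0 had groups apart, against 0.743%. Of the chaperones 9 were at an unadjusted p under 0.05, and DESeq2 called 1, against 221 of all 15468 genes it tested. Hsp90aa1 was 72.8 ± 13.2 CPM (SD, n = 6) in WT and 97.5 ± 29.4 CPM (SD, n = 6) in HNKO (adjusted p = 0.255), and the smallest p was that of Hspa12a, with 1.71 ± 0.938 CPM (SD, n = 6) in WT and 3.81 ± 1.40 CPM (SD, n = 6) in HNKO (adjusted p = 0.1). The summed endothelial marker level was 328 to 678 CPM in WT CS and 485 to 1186 CPM in HNKO CS. The cholangiocyte sums did not overlap, at 7.18 to 24.97 CPM in WT and 26.85 to 180.9 CPM in HNKO. In the same order the sums were 90.6 to 431.6 and 156.7 to 831.1 CPM for stellate cell markers. They were 4.98 to 13.5 and 7.74 to 37.8 CPM for other leukocyte markers, and 185.7 to 580.7 and 325.4 to 1451 CPM for Kupffer cell and macrophage markers. The part of other cell types was not tested.

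In primary hepatocytes 9 of the 62 tested genes passed the threshold, with 3 higher and 6 lower in HNKO, a share of 14.5% against 12.8% of all tested genes, of which 5.14% were higher and 7.67% lower. With library totals the split was 6 higher and 3 lower. Dnajc21 had the smallest p. It had a lowest value of 37.8, a median of 49.2 and a highest value of 58.6 CPM in WT PH. In HNKO PH it had a lowest value of 30.9, a median of 33.6 and a highest value of 40.3 CPM. The groups overlapped only slightly, and HNKO lay at 0.700 of the WT level (log2 fold change -0.52 ± 0.09 (SE), adjusted p = 0.000777). Dnajc2 was lower as well (log2 fold change -0.29 ± 0.09 (SE), adjusted p = 0.0365), while its partner Hspa14 was 17.4 ± 2.52 CPM (SD, n = 6) in WT and 21.2 ± 3.31 CPM (SD, n = 6) in HNKO and was not called (log2 fold change 0.29 ± 0.10 (SE), adjusted p = 0.0529). Hspa9 had a lowest value of 533, a median of 775 and a highest value of 844 CPM in WT PH. In HNKO PH it had a lowest value of 537, a median of 569 and a highest value of 586 CPM. All HNKO values lay within a narrow range and below 5 of the 6 WT values, the exception being the WT culture of mouse 544 at 533 CPM (log2 fold change -0.40 ± 0.10 (SE), adjusted p = 0.0091).

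Hspb8 had a lowest value of 133, a median of 279 and a highest value of 352 CPM in WT PH. In HNKO PH it had a lowest value of 107, a median of 160.3 and a highest value of 199 CPM. Again the WT culture of mouse 544, at 133 CPM, was the only WT library within the HNKO range, and HNKO lay at 0.572 of the WT level (log2 fold change -0.81 ± 0.20 (SE), adjusted p = 0.00888). The remaining lower genes were Dnajb12, a J-domain protein of the ER membrane (log2 fold change -0.32 ± 0.08 (SE), adjusted p = 0.0134), and Dnajc5 (log2 fold change -0.36 ± 0.12 (SE), adjusted p = 0.0412). The 3 higher genes were Hspbp1, an exchange factor of HSP70, at 23.0 ± 2.87 CPM (SD, n = 6) in WT and 30.6 ± 3.44 CPM (SD, n = 6) in HNKO (log2 fold change 0.41 ± 0.12 (SE), adjusted p = 0.02), Dnajc17, known from splicing, at 2.15 ± 0.498 CPM (SD, n = 6) and 3.54 ± 1.00 CPM (SD, n = 6) (log2 fold change 0.71 ± 0.19 (SE), adjusted p = 0.0121), and Dnaja4 (log2 fold change 0.41 ± 0.14 (SE), adjusted p = 0.0489). Hspbp1 and Dnajc17 were the only members whose groups did not overlap, against 2.04% of all tested genes. Dnajc17 shares 18.2% of its 51-base stretches with other genes, among them its neighbour Zfyve19.

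Stress-inducible genes with large rises in culture, Hspb1, Hsp90aa1 and Hsph1, were not called between genotypes there. Hspb1 was 123 ± 52.3 CPM (SD, n = 6) in WT PH and 127 ± 29.5 CPM (SD, n = 6) in HNKO PH (adjusted p = 0.921), Hsp90aa1 382 ± 57.4 CPM (SD, n = 6) and 392 ± 56.3 CPM (SD, n = 6) (adjusted p = 0.921), and Hsph1 115 ± 23.7 CPM (SD, n = 6) and 101 ± 10.53 CPM (SD, n = 6) (adjusted p = 0.662). Dnajb9 was 51.2 ± 8.67 CPM (SD, n = 6) in WT and 36.1 ± 4.10 CPM (SD, n = 6) in HNKO and just missed the threshold (log2 fold change -0.50 ± 0.17 (SE), adjusted p = 0.0523). Hspa1b was 2.65 ± 0.516 CPM (SD, n = 6) in WT and 4.28 ± 1.12 CPM (SD, n = 6) in HNKO (log2 fold change 0.69 ± 0.26 (SE), adjusted p = 0.071), and it was called higher in HNKO with library totals (adjusted p = 0.0486) and by DESeq2 (adjusted p = 0.0288). The genotype calls in PH depended on the model. Fitted with the PH groups alone, 0 members (adjusted p 0.0537 to 0.168 for the 9) and 3 of all tested genes were called. Without mouse 544 the count was 19, with 8 higher and 11 lower, and without mouse 558 it was 4. Over all tested genes the calls were 1913 in the main fit, 3793 of 15082 without mouse 544 and 924 of 14918 without mouse 558. Dnajc21, Hspb8 and Hspa9 were called in every alternative but that fit, whereas Dnaja4, Dnajc2 and Dnajc5 lost their calls in 10 or more alternatives (adjusted p up to 0.171, 0.232 and 0.168). The call of Dnajc17 was lost without mouse 552 (adjusted p = 0.053), that of Dnajb12 without mouse 558 (0.064) or with library totals (0.0694), and that of Hspbp1 without mouse 542 (0.0513) or 558 (0.0523) or with all 36 libraries (0.106). The cholangiocyte marker sum was 28.3 to 224 CPM in WT PH and 86.1 to 463 CPM in HNKO PH, and the hepatocyte marker sum 41020 to 63440 and 34430 to 50620 CPM. The mitochondrially encoded share of counts was 2.61% to 3.33% in HNKO PH, below the 3.98% to 5.53% of 5 WT cultures and above the 1.93% of mouse 544. The part of these measures in the genotype differences was not tested. The difference of the genotype effect between PH and CS was called for 0 members, against 0.221% of all tested genes. Of the members 10 were at an unadjusted p under 0.05, and DESeq2 called 1, against 294 of all 13652 genes it tested. Dnajc21 came nearest (-0.46 ± 0.13 on the log2 scale, SE, adjusted p = 0.095).

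**Figure D4:**
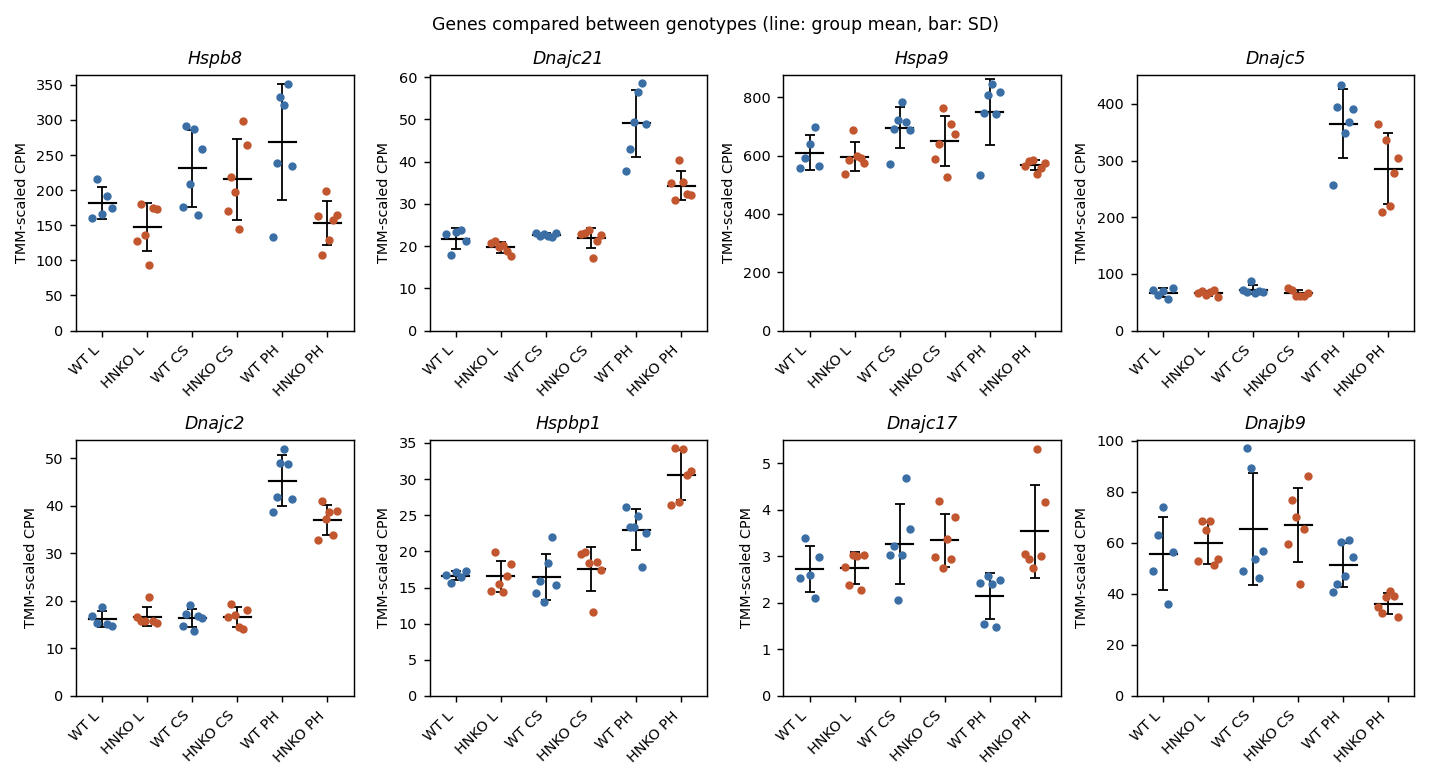
TMM-scaled CPM of 8 chaperone genes in each library of the 6 groups, with a line for the group mean and a bar for the SD, WT in blue and HNKO in orange. In PH the HNKO values of Dnajc21 and Hspb8 lie mostly below WT, those of Hspbp1 and Dnajc17 lie above all WT values, and the WT culture of mouse 544 is the lowest WT point for Hspb8 (133 CPM) and Hspa9 (533 CPM).

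The genes that work with these chaperones were followed in 5 lists drawn up from textbook knowledge. Hsf1 itself rose in WT PH against L, from 15.8 ± 1.99 CPM (SD, n = 5) to 26.4 ± 1.34 CPM (SD, n = 6) (log2 fold change 0.75 ± 0.11 (SE), adjusted p = 1.55e-07), whereas Hsf2 fell (log2 fold change -0.70 ± 0.11 (SE), adjusted p = 1.42e-06) and Hsbp1l1 fell by 4.02 on the log2 scale, which gave 1 rise and 2 falls among 5 tested genes of HSF1 and its regulators. Of 28 cytosolic co-chaperones 16 rose and 3 fell, with a median log2 fold change of 0.29. The HSP70 exchange factor Bag2 rose (log2 fold change 3.11 ± 0.27 (SE), adjusted p = 3.41e-12), as did the myosin and HSP90 co-chaperone Unc45a (log2 fold change 1.93 ± 0.14 (SE), adjusted p = 5.17e-14) and the HSP90 co-chaperone Sugt1 (log2 fold change 0.77 ± 0.07 (SE), adjusted p = 4.71e-11), while Bag4 fell (log2 fold change -2.30 ± 0.14 (SE), adjusted p = 6.59e-16). Of 14 genes of the cytosolic chaperonin TRiC, which folds actin and tubulin, and of prefoldin, 10 rose and 2 fell (median 0.88), with log2 fold changes of 1.24 ± 0.09 for Cct2, 1.24 ± 0.09 for Cct5, 1.14 ± 0.09 for Cct7 and 0.89 ± 0.09 for Cct6a (SE). The background for these lists was 75.7% of all tested genes called and a median of 0.01. With library totals the splits were 2 and 1 for the HSF1 list, 25 and 2 for the co-chaperones and 13 and 0 for TRiC and prefoldin.

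The lists of the other compartments did not move as one. Of 30 genes of ER folding and the unfolded protein response, Hspa5 among them, 5 rose and 12 fell (median -0.07). The 2 ER oxidases went in opposite directions, Ero1l by 3.24 ± 0.20 and Ero1lb by -2.24 ± 0.18 on the log2 scale (SE), and Fkbp2, an ER prolyl isomerase, and Edem1, which marks misfolded glycoproteins for removal, fell (-1.12 ± 0.11 and -1.13 ± 0.11, SE). Of 13 genes of mitochondrial folding and proteases 3 rose and 7 fell (median -0.25), among them the protease Lonp1, which rose (log2 fold change 1.49 ± 0.09 (SE), adjusted p = 1.57e-15), and the mitochondrial HSP90 Trap1, which fell (log2 fold change -0.78 ± 0.09 (SE), adjusted p = 1.42e-09). Library totals gave 16 and 9 for the ER list (median 0.49) and 6 and 1 for the mitochondrial list (median 0.30), so that the sign of both medians depended on the scaling. In HNKO the same lists gave 1 rise and 2 falls of 5, 17 and 4 of 28, 12 and 1 of 14, 6 and 13 of 30, and 3 and 6 of 13, in the same order and against 76.2% of all tested genes. Between genotypes 0 genes of any list were called in L or CS, where 1.51% and 0.0268% of all tested genes were. In PH, where 5.14% of all tested genes were higher and 7.67% lower in HNKO, 4 of 28 co-chaperones were lower, Bag2 (log2 fold change -1.21 ± 0.23 (SE), adjusted p = 0.00129) and Cdc37l1 (log2 fold change -0.44 ± 0.10 (SE), adjusted p = 0.00507) among them, while TRiC and prefoldin gave 1 higher and 1 lower, the ER list 2 lower and the mitochondrial list 1 lower. With only the PH groups fitted, 0 genes of these 4 lists were called. The co-chaperones gave 2 calls without mouse 554 or 556, TRiC and prefoldin 0 without a filter, with all 36 libraries or without mouse 542, 548, 552, 554, 556, 558, 564 or 566, the ER list 0 without mouse 542 or 558 and 5 without mouse 544, and the mitochondrial list 0 without mouse 552, 554 or 558. Over all tested genes the calls ran from 855 to 3793 when a mouse was left out.

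**Figure D5:**
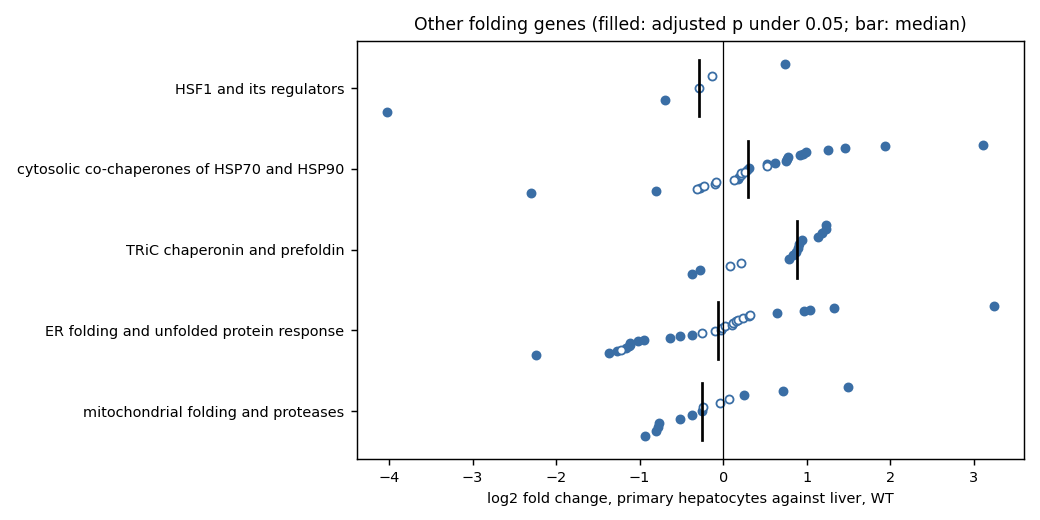
Log2 fold change of PH against L in WT (horizontal axis) for the tested genes of 5 lists of folding genes, with filled points for genes called and a black bar for the list median. The median is highest for TRiC and prefoldin (0.88) and lowest for the HSF1 list (-0.29), and the ER list spreads from -2.24 (Ero1lb) to 3.24 (Ero1l).

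The 12 members that were not tested were Dnajb3, Dnajb7, Dnajb8, Dnajb13, Dnajc5b, Dnajc5g, Dnajc6, Hspa1l, Hspb2, Hspb3, Hspb7 and Hspb9. Their group means were all below 1 CPM, the highest being 0.450 CPM for Hspb7 in HNKO PH. Several of these are known mainly from testis, muscle or neurons.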

How the data were processed

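RNA was extracted from liver pieces, cell pellets and cultured hepatocytes, 500 ng was depleted of ribosomal RNA, and stranded libraries were made. The authors deposited raw counts of reads per gene, made with STAR and featureCounts on GRCm38 (versions 2.7.2b and 1.6.4 per the labels). Their published methods name another STAR version for this experiment. Whether strand was used in counting is not given in the sources used here, so that overlapping and antisense genes may share reads, and close paralogs and pseudogenes may divide them. Gene symbols and exon lengths were matched by gene ID to GENCODE, and 54079 of 54232 IDs had a symbol. Genes were compared by the share of their 51-base stretches that another gene also holds.

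Counts were filtered with filterByExpr (minimum count 10), which left 14932 genes and removed 39300, scaled by TMM and fitted with 6 group coefficients in edgeR 4.0.16 under R 4.3.3. The quasi-likelihood F test was used for 12 contrasts, with Benjamini-Hochberg adjustment over all tested genes within a contrast. Each SE was derived from the log2 fold change and its F value. The WT liver of mouse 558 was left out because its mean Spearman correlation with the other livers was 0.777, against 0.941 to 0.983 for the other libraries with their own sample type, and it had 2547422 counts. Depth was 8698735 to 20350519 counts in the 35 libraries used. The script was tested on simulated data. DESeq2 1.42.0, RLE factors, library totals, no filter, all 36 libraries, only the groups compared, the mouse as a block and leaving out each mouse were the alternatives.

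The 3 libraries of a mouse come from the same animal, so that the mouse number pairs them. Deviations from the group mean correlated within a mouse with a median of 0.324 between L and CS (11 pairs), 0.101 between L and PH (11 pairs) and 0.156 between CS and PH (12 pairs), against -0.023 to -0.001 between different mice. The lowest of a pair type were 0.095, -0.017 and -0.013.

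Any of the 74 genes may be named. A fixed set of 18 well known members, and in each contrast up to 10 of the largest rises and falls among called genes whose higher group reached 1 CPM on average, were taken for full statistics. Of each pathway list up to 4 genes with the smallest p were named, with Hsf1 always. Members and lists were chosen with earlier results of these data known. Promoters were matched by symbol to RefSeq sequences of GRCm38.p6.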

Additional observations from a re-analysis of the deposited data

Results flagged for a closer look

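In groups of 4 to 10 libraries, a value was picked out when its gap to the nearest other library took an unusually large part of the range of the group (the 95% critical value of Dixon). Chance picks about 1 in 20 groups, and 26 of 372 groups of tested chaperones (6.99%) were picked, so that most may be chance. All values are CPM.

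In WT liver Dnajb5 was 6.92 in mouse 564 (nearest other library 4.64), Dnajc27 was 2.60 in mouse 554 (1.37), Hspb11 was 5.90 in mouse 544 (4.89), and Hspbap1 was 4.21 in mouse 548 (3.36). In HNKO liver Dnajc10 and Dnajc2 were highest in mouse 552, at 63.0 (42.7) and 20.8 (16.6), Hsp90b1 was 1316 in mouse 546 (1012), and Hspb1 was 12.9 in mouse 540 (7.44).

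In WT cell suspension the library of mouse 554 was low for Dnaja4 (3.37 against 5.26) and Dnajc8 (25.8 against 28.7) and high for Dnajc5 (88.1 against 71.1). Dnajb1 was 37.9 in mouse 548 (26.4), and mouse 544 had Hspa12a at 3.52 (1.67) and a low Hspd1 at 384 (469.6). In HNKO cell suspension mouse 552 was low for Dnaja2 (94.8 against 123.5) and Hspbp1 (11.7 against 17.4) and high for Dnajc9 (10.4 against 6.77). Mouse 546 was low for Dnajc13 (37.0 against 44.8) and Dnajc16 (17.3 against 22.3) and high for Hsp90aa1 (153.8 against 96.2). Hspb1 was 13.7 in mouse 540 (7.87), the mouse that was also highest in HNKO liver.

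In WT culture Hspa9 was low in mouse 544, at 533 against 744 in the next library, and Hspb1 was high in mouse 556, at 222.6 against 123.4. The low Hspa9 value lies in the comparison of genotypes in PH, in which Hspa9 differed by -0.40 on the log2 scale. In HNKO culture Dnajc10 was 134.5 in mouse 546 (117.5), Dnajc14 was 74.8 in mouse 552 (64.4), and Hspa12a was 0.528 in mouse 542 (0.219).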

How the results depend on the processing

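The culture comparisons were stable in number: 48 chaperones were called in WT PH against L and 45 to 49 when each mouse was left out, 50 and 47 to 51 in WT PH against CS, 50 and 46 to 51 in HNKO PH against L, and 50 and 49 to 51 in HNKO PH against CS. Of the members with full statistics 24 of 28 kept their call under every alternative in WT PH against L. With library totals the sign turned for 12 of the 62 tested members in WT PH against L (3 of them called), 14 in WT PH against CS (10 called), 12 in HNKO PH against L (7 called) and 12 in HNKO PH against CS (7 called), and of these 2, 5, 2 and 4 were called in the opposite direction. Among those with full statistics it turned in WT PH against L for Hspd1 (0.46), Hspe1 (0.12), Dnaja1 (0.37) and Dnajb9 (0.42), in WT PH against CS for Hspd1 (0.35), Hspe1 (0.16) and Dnaja1 (0.20), in HNKO PH against L for Hspd1 (0.18), Hspe1 (0.12) and Dnaja1 (0.46), and in HNKO PH against CS for Hspd1 (0.23), Hspe1 (0.079), Hspb8 (0.16) and Dnaja1 (0.55). That scaling moved the median of all genes by as much as 0.66.

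The genotype comparisons were not stable. In liver the count of 1 became 9 with library totals, 4 with all 36 libraries, 0 with only the groups compared, 4 with DESeq2, and 0 to 2 without a mouse. Over all tested genes the 225 liver calls became 1101, 741, 186 and 541 in the same order, and 29 to 505 without a mouse. In CS the 0 became 1 with DESeq2 and 0 to 1 without a mouse, and the 4 calls over all tested genes became 221 and 2 to 595. In PH the 9 became 5 with all 36 libraries, 0 with only the groups compared, 15 with DESeq2, and 4 to 19 without a mouse. Here the 1913 calls over all tested genes became 811, 3 and 2433, and 855 to 3793 without a mouse. In WT CS against L the 0 became 1 with library totals, 1 without a filter, 2 with only the groups compared and 2 with DESeq2, and stayed 0 without any mouse. The 522 calls over all tested genes became 638, 446, 601 and 789, and 300 to 691 without a mouse. In HNKO CS against L the 1 became 6 with library totals, 3 without a filter, 3 with DESeq2, and 1 to 2 without a mouse. The 0 differences of the genotype effect between PH and L became 2 with library totals, 1 with the mouse as a block, 1 with DESeq2, and 0 to 2 without a mouse, those between PH and CS became 1 with DESeq2 and 0 to 1 without a mouse, and those between CS and L stayed 0 without any mouse. For PH and L the 236 calls over all tested genes became 343, 378 and 659, and 8 to 1005 without a mouse. For PH and CS the 33 became 294 with DESeq2 and 5 to 647 without a mouse. The cause of these changes was not tested. With the mouse as a replicate block 48 members were called in WT PH against L, 51 in WT PH against CS and 50 in both HNKO comparisons, 0 and 1 in CS against L of WT and HNKO. The block cannot be fitted for the genotype effect, because each mouse has 1 genotype.

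Depth limits the 12 members that were not tested, the Hspa1a counts, and differences of low genes such as Hspa12b. Each group holds 5 or 6 mice, but the spread behind the p-values of the main fit was estimated over the 35 libraries of all 6 groups together. In that fit the 3 libraries of a mouse were treated as independent.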

Other observations

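Some folding genes outside the chaperone families differed in the cell suspension. Hsf1 was higher in HNKO CS than in HNKO L (log2 fold change 0.34 ± 0.10 (SE), adjusted p = 0.0386, quasi-likelihood test of edgeR), a call that was lost with library totals, no filter, all 36 libraries, only the groups compared, and without mouse 546, 552, 556, 562, 564 or 566. In WT the value was 0.18 ± 0.11 (SE, adjusted p = 0.445), and the difference between the genotypes was 0.16 ± 0.15 (SE, adjusted p = 0.982). Cdc37l1, an HSP90 co-chaperone, was lower in CS than in L in both genotypes, with log2 fold changes of -0.37 ± 0.11 in WT and -0.49 ± 0.10 in HNKO (SE, adjusted p = 0.0482 and 0.00176). The WT call was lost with RLE factors, no filter, all 36 libraries, and without mouse 540, 542, 544, 548, 554, 556, 558, 562 or 564. It was also lower in HNKO than in WT culture, as was Fkbp5, an HSP90 co-chaperone of steroid receptors (log2 fold change -0.72 ± 0.23 (SE), adjusted p = 0.0365).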
